A study of Drosophila melanogaster with 2 samples.

Results

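Peaks of the protein encoded by CG6276 were described at 7 genes of oxidative stress defence: Cat, Sod1, Sod2, Jafrac1, Keap1, cnc and maf-S. They were assayed by chromatin immunoprecipitation and sequencing (ChIP-seq) in prepupae of a transgenic Drosophila melanogaster line that stably expresses CG6276 with GFP at its C-terminus. Animals of both sexes were pooled whole, at an age the labels give as 72 days, which is implausibly long for this stage and may be an error in the label, and bound DNA was recovered with an antibody to GFP. The 2 libraries, biological replicates 2 and 4, form 1 group from 1 line, and no control library was analysed here. Whole animals mix all tissues, so binding in few cells and weak binding in many cannot be told apart. The 7 genes were selected from 13945 annotated protein-coding genes by name, after the strong peak at Cat was known, and all peak summits in each gene or within 5 kb of it were taken. Peak values at these genes are therefore a description, with no test. The irreproducible discovery rate (IDR) scores how alike peaks rank between replicates. The authors' IDR-thresholded list held 7326 peaks on genome build dm6. Not all are in both replicates: 7037 overlapped a peak of both replicate lists. Of the 7326 peaks, 15 lay at 5 of the 7 genes: 4 at Cat, 4 at Jafrac1, 5 at cnc, 1 at Keap1 and 1 at maf-S. Sod1 and Sod2 had 0. Among all protein-coding genes 40.1% had at least 1 such summit, 7.44% had 4 or more and 4.55% had 5 or more. Jafrac1 is listed as Prx2 in the gene annotation used here. How many reads lie behind each peak is unknown.

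Aerobic cells turn oxygen into superoxide as a by-product. Superoxide dismutases convert superoxide to hydrogen peroxide, which catalase and peroxiredoxins then remove. Many antioxidant genes are switched on by CncC, the long product of cnc and the fly counterpart of mammalian Nrf2. CncC binds DNA with the small Maf protein encoded by maf-S at antioxidant response elements, and Keap1 holds CncC inactive until oxidants or electrophiles release it. In flies this pathway also acts on ecdysone-related genes, and prepupae are at the stage where that hormone drives metamorphosis.

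The sequence under 8 of the 15 summits is shown. These were chosen to cover the strongest peak and start peaks of Cat, Jafrac1 and cnc. They also include the peak upstream of Keap1 and the 1 window with an antioxidant response element. At the cnc-RE start the stronger of the overlapping peaks is shown (summit 318 bp downstream), not the nearer one (117 bp). Windows were read from the RefSeq Release 6 reference sequence. Each line is the plus strand of dm6 from 100 bp before to 100 bp after an IDR-thresholded summit. A label that names a start means that the summit lies within 500 bp of it. None of the windows so labelled contains the start itself. Capitals mark matches, on either strand, to 1 of 8 short motifs. The antioxidant response element was searched as TGACNNNGC and the AP-1 motif as TGACTCA, which can overlap it. The motif of GATA factors was searched as GATAAG and that of GAGA factor as GAGAG, whose matches can overlap each other. The E-box was searched as CACGTG and the DNA replication-related element (DRE) as TATCGATA. The motif of forkhead factors was searched as GTAAACA, and the last motif, with no factor assigned here, was CAGTG.
Cat, start, chr3L:18822820-18823020: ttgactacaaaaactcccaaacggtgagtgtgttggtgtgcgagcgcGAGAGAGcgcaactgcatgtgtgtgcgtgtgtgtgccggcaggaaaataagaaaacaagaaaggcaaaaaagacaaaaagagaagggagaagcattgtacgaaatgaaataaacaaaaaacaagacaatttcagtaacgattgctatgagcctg
Cat, deeper in the intron, chr3L:18825021-18825221: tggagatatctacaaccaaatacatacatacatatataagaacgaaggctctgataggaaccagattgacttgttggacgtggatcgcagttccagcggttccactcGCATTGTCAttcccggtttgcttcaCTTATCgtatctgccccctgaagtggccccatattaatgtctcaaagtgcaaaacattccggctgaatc
Jafrac1, start, chrX:13329908-13330108: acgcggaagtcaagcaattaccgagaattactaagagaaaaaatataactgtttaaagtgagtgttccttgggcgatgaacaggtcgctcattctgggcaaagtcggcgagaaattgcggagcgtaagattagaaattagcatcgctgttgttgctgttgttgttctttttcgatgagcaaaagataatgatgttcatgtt
Jafrac1, downstream, chrX:13332150-13332350: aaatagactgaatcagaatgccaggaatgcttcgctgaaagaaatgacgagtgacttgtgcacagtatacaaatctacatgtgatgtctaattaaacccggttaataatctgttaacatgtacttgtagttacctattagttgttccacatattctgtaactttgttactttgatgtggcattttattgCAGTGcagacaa
Keap1, upstream, chr3R:17080821-17081021: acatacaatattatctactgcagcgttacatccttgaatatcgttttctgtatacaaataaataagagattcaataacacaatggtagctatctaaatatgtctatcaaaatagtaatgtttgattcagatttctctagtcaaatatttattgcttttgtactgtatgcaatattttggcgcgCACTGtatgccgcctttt
cnc, distal start, chr3R:23226712-23226912: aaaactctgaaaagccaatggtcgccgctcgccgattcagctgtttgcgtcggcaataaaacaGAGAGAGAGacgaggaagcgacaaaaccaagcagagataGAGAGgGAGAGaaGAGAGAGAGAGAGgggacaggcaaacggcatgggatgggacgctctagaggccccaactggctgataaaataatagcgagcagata
cnc, start of cnc-RC, chr3R:23221630-23221830: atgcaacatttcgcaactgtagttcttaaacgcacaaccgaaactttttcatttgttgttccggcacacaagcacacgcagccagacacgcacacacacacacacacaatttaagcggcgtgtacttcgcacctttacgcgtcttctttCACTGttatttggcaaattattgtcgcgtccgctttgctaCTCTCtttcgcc
cnc, start of cnc-RE, chr3R:23190001-23190201: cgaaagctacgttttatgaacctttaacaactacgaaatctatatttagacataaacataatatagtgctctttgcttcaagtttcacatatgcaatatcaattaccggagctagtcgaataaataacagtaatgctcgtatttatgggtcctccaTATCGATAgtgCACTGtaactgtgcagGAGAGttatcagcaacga

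The antioxidant response element was found in the window of 1 of the 15 summits, the deeper intronic peak of Cat, where it began 7 bp to the right of the summit. All 7326 IDR-thresholded windows of the same length held it in 4.37%, and windows around the most upstream start of all protein-coding genes in 6.45%. Of 20 windows around the annotated starts of the 7 genes, 2 held it, at cnc-RE and cnc-RP. The strongest Cat window held no match to it. GAGAG was present in 7 of the 15 windows (46.7%, against 28.6% of all IDR-thresholded windows). The window just upstream of the distal cnc start alone carried 10 matches in 4 runs. CAGTG was in 6 of 15 (40.0%, against 42.6%), including the Keap1 window and the downstream Jafrac1 window. The GATA motif and the DRE were each in 1 window, at Cat and at cnc respectively, against 9.51% and 0.519% of all windows. In the start windows of all protein-coding genes they occurred in 13.0% and 7.84%. No window of the 15 held the AP-1 motif, the E-box or the forkhead motif, which occurred in 1.61%, 1.65% and 4.65% of all windows. The GC content of the 15 windows ranged from 30.8% in the Keap1 window to 51.2% in the window upstream of the distal cnc start. Their median was 42.8%, against 35.8% over all IDR-thresholded windows and 41.3% over the start windows of all protein-coding genes. A motif match is a match of letters in these windows, not a bound site, and a window with none says nothing about the factor.

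Cat, which encodes catalase (506 codons, a single annotated transcript on the plus strand of chromosome 3L, 18822604 to 18828188), held the strongest peak of the group. This peak reached from 18822584 to 18823228, with its summit 316 bp downstream of the start, in the first intron. Its signal value was 3207.1, rank 10 of the IDR-thresholded list. It reached just past the start, whereas the matching peaks of replicates 2 and 4 began downstream of the start, at 18822616 and 18822649. The peak that matched it in replicate 2 had a signal value of 1710.2 (rank 10 of 30000) and the one in replicate 4 had 1499.3 (rank 14), with summits 4 bp and 0 bp away. Signal values are scores of the authors' peak caller on no stated scale, so between the replicate lists only ranks are set side by side. All 7326 IDR-thresholded peaks stand in the pooled list with the same ends and signal value, so those lists share a scale. Among the 1842 protein-coding genes with an IDR-thresholded summit within 500 bp of a start, called a promoter peak here, Cat stood at place 4.

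Cat also had weaker peaks. A second intronic peak, 2517 bp downstream of the start, had a signal value of 189.1 (rank 5179) and ranked 6496 and 5330 in replicates 2 and 4. The remaining pair lay 2833 and 2208 bp upstream of the Cat start, beyond the telomere-capping gene HipHop and inside CG14073, which is transcribed away from Cat. Their summits were 904 and 279 bp downstream of a CG14073 start, so by distance they belong to that gene. They had signal values of 319.0 and 418.2, with ranks of 3283 and 1664 in replicate 2 and of 2290 and 2432 in replicate 4. The authors labelled the pooled list and both replicate lists as peaks and background, so an entry there may be background. The −log10 q-values went down to 0.486 in replicate 2 and 0.481 in replicate 4. The pooled list added 3 peaks at Cat with signal values from 33.6 to 59.2. No IDR-thresholded summit lay in the 5 kb downstream of Cat. The nearest one outside the 5 kb limit was 5110 bp upstream, in CG14073, with a signal value of 159.6.

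**Figure D1:**
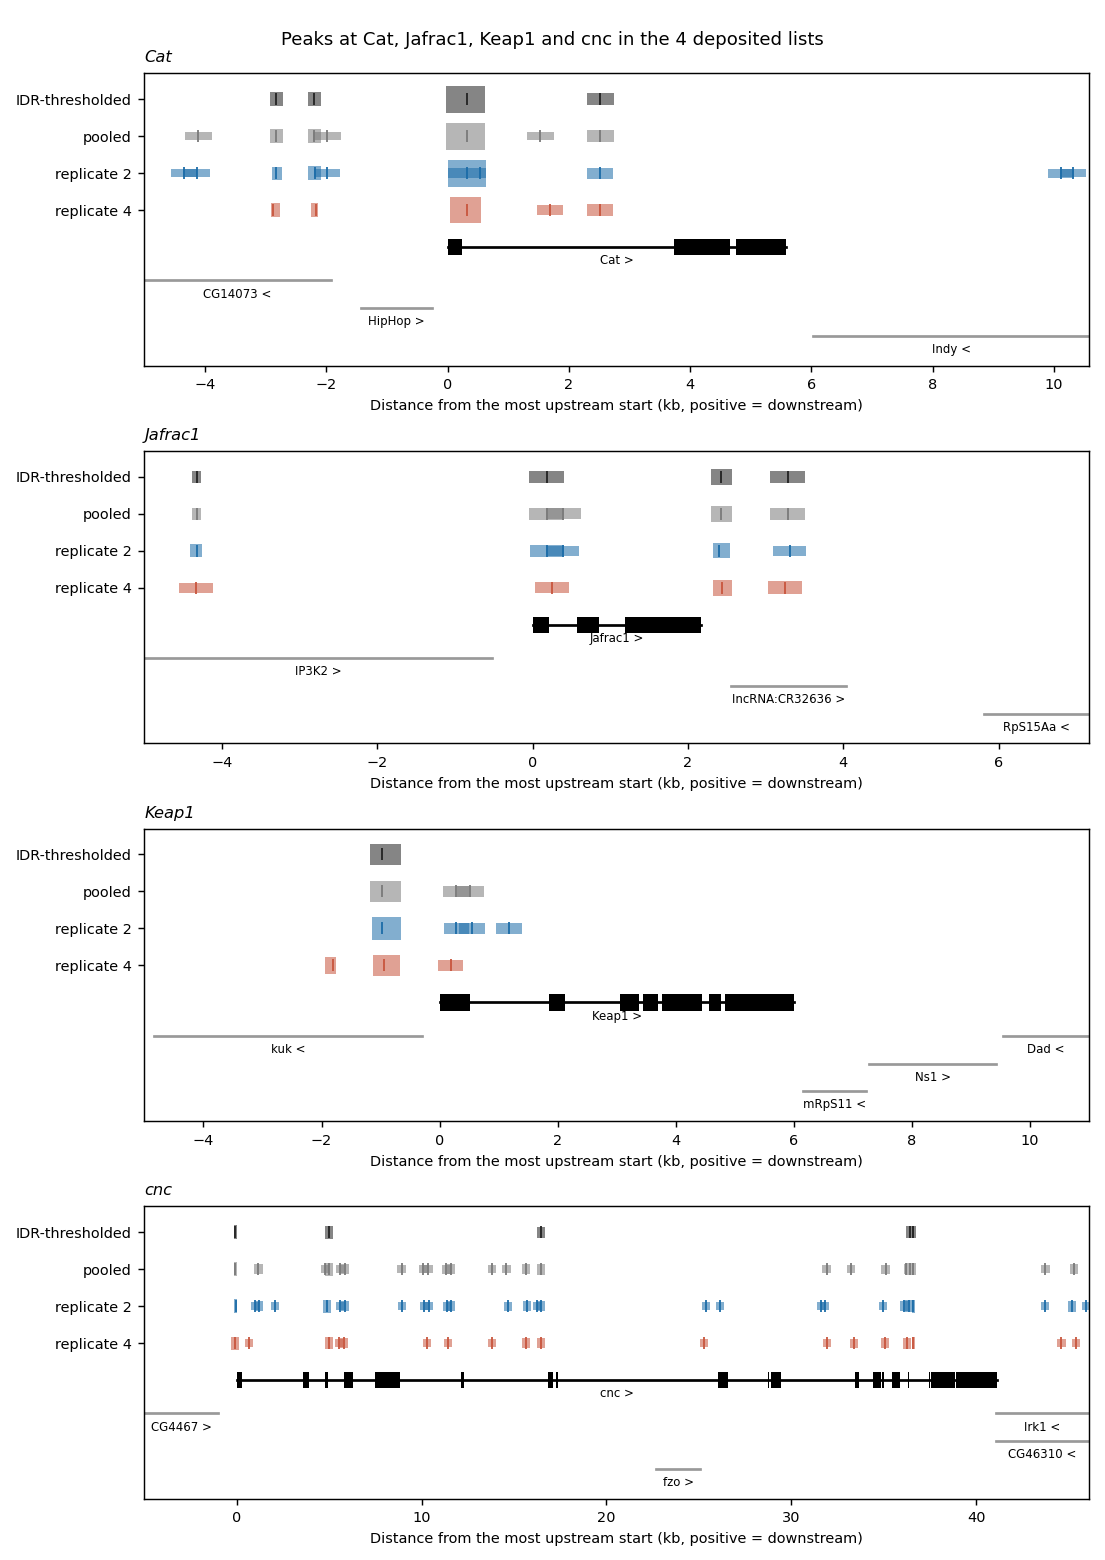
Peaks at Cat, Jafrac1, Keap1 and cnc in the IDR-thresholded, pooled, replicate 2 and replicate 4 lists, drawn along the direction of each gene, in kb from its most upstream start. Boxes span peaks, ticks mark summits and taller boxes mark better ranks within that list (log scale of rank). Black boxes on the gene line are exons, and > or < gives transcription along or against the named gene. The tall box near the Cat start ranks 10 in the IDR-thresholded list, and the tall box at Keap1 (rank 99) lies upstream of the gene, within kuk.

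The promoter peaks closest in rank to the strongest Cat peak were those of Svil (ranks 13 and 13 in replicates 2 and 4), CG18549 (14 and 17), CenG1A and mRpS23, which share 1 peak (15 and 12), and CG14100 (11 and 6). The measure was the sum of the 2 rank differences, 4 for Svil, 7 for CG18549 and for the shared peak and 9 for CG14100, over 1466 other protein-coding genes whose promoter peak was matched in both replicates. It describes peak height in 2 libraries only.

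The superoxide dismutase genes, unlike Cat, had no IDR-thresholded peak in the gene or within 5 kb. This is the more common state, since 40.1% of all protein-coding genes had one. Sod1 encodes the cytosolic copper-zinc enzyme (chromosome 3L, 11112281 to 11113740, minus strand). In replicate 2 it carried overlapping peaks with summits 412 and 207 bp downstream of its start, in the intron, with signal values of 233.9 (rank 1751) and 183.2 (rank 2475). Replicate 4 had no peak in Sod1 or within 5 kb of it, and neither had the pooled list. The peaks at Sod1 thus rest on replicate 2 alone. Of the 1751 strongest peaks of replicate 2, 39 (2.23%) overlapped neither a pooled peak nor a replicate 4 peak. The nearest IDR-thresholded summit lay just beyond the 5 kb limit, at 5023 bp from Sod1 and 297 bp upstream of a start of FoxK, with a signal value of 256.5.

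Sod2, which encodes the mitochondrial manganese enzyme, lies on chromosome 2R from 16772785 to 16773915, minus strand. Both replicate lists held weak entries at its start, beside the start of Arp53D, an actin-related gene, and no pooled peak overlapped them. The strongest of these entries had signal values of 45.0 (rank 12901) in replicate 2 and 28.9 (rank 20903) in replicate 4. Their summits lay 94 bp downstream and 3 bp upstream of the start. Their −log10 q-values were 1.48 and 0.784, so they may be background. Stronger peaks within 5 kb lay near Vkor, with summits 206 and 154 bp upstream of its start, signal values of 47.4 (rank 12223) and 70.3 (rank 7639) in replicates 2 and 4, and no overlapping pooled peak. The pooled list had no summit within 500 bp of the Sod2 start. Its 2 peaks near Sod2, with signal values of 34.2 and 45.0, were nearest to starts of the kinesin gene unc-104. The nearest IDR-thresholded summit was 10644 bp away. The other superoxide dismutase gene, Sod3, and Ccs, which encodes the copper chaperone of Sod1, also had 0 IDR-thresholded summits within 5 kb.

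**Figure D2:**
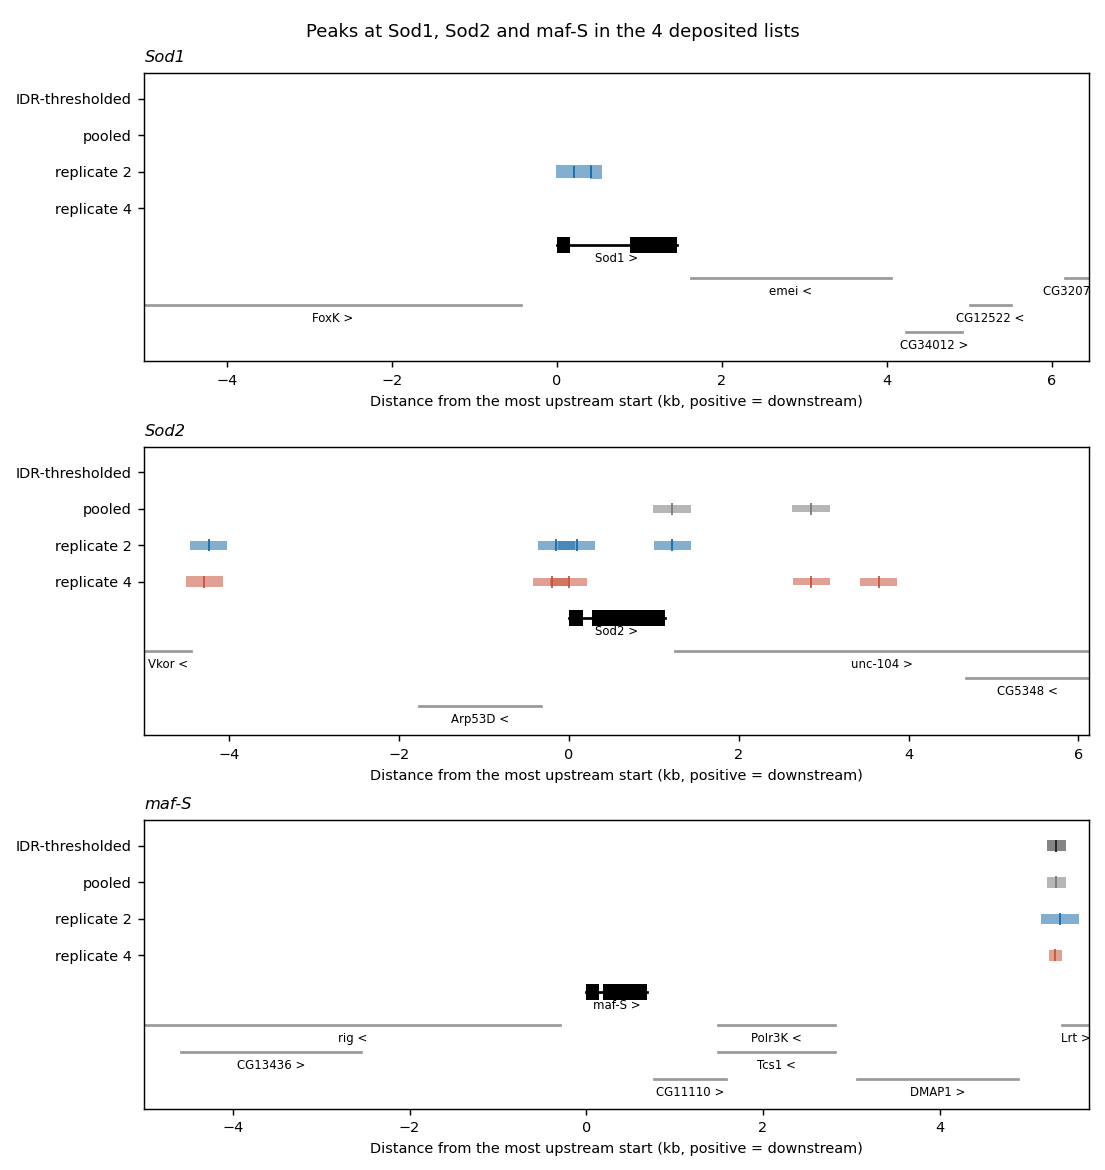
Peaks at Sod1, Sod2 and maf-S in the same 4 lists, drawn as in the map of Cat, Jafrac1, Keap1 and cnc (distance in kb from the start, taller boxes for better ranks). The Sod1 peaks (ranks 1751 and 2475) are in replicate 2 alone, the Sod2 peaks are low in both replicates, and the 1 IDR-thresholded peak near maf-S lies at its neighbour Lrt.

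Jafrac1 encodes a cytosolic peroxiredoxin that reduces hydrogen peroxide (chromosome X, 13329824 to 13331994, plus strand). Its promoter peak was modest, with a summit 184 bp downstream of the most upstream of its 4 annotated starts, in the 5′ UTR. Its signal value was 202.1 (rank 4835), with rank 4624 of replicate 2 and 5979 of replicate 4. All 5 annotated transcripts encode the same 194 codons. The strongest peak at Jafrac1 was not at its start. It lay 256 bp beyond the 3′ end and 124 bp upstream of the non-coding gene lncRNA:CR32636, from 13332117 to 13332396, with a signal value of 619.9 (rank 1037) and ranks of 1536 and 726 in replicates 2 and 4.

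A further Jafrac1 peak in an exon of lncRNA:CR32636 had a signal value of 207.3 and differed in rank between the replicates, 9760 in replicate 2 against 2837 in replicate 4. The peak 4322 bp upstream, in an intron of the inositol trisphosphate kinase gene IP3K2, differed the other way, with ranks of 2875 and 10381 (signal value 239.6). With 1 library per rank, these differences have no error of their own. By nearest start, 1 of the 4 peaks belonged to Jafrac1.

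The regulators showed peaks of different kinds. Keap1, the inhibitor of CncC (chromosome 3R, 17073942 to 17079945, minus strand), had the second strongest peak of the group, but it was placed upstream of the gene. That peak ran from 17080592 to 17081125 with a signal value of 1754.7 (rank 99), and it ranked 72 and 130 in replicates 2 and 4. Its summit was 976 bp upstream of the Keap1 start and 677 bp downstream of the start of kuk, a nuclear envelope gene transcribed the opposite way from a start 299 bp from that of Keap1. The summit was in an intron of kuk. The data give its position, not the gene it acts on.

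At the Keap1 start itself the peaks were weak and were not in the IDR-thresholded list. The pooled list had summits 277 and 518 bp downstream of it, with signal values of 136.5 (rank 7510) and 132.7 (rank 7739), just below the lowest IDR-thresholded value of 139.4. Replicate 2 had peaks 284 bp (rank 9432) and 547 bp (rank 6791) downstream of the start, and replicate 4 had 1 at 185 bp (rank 5983). Replicate 4 also had a peak inside kuk, 1809 bp upstream of Keap1 and 192 bp upstream of an internal kuk start, with a signal value of 432.8 (rank 543) that overlapped no peak of replicate 2 or of the pooled list. Only 2 peaks of replicate 4 ranked that high or higher without such an overlap.

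cnc (chromosome 3R, 23185580 to 23226711, minus strand) had the most peaks, but it is also the longest of the 7 genes. Per 10 kb of gene plus 5 kb on each side it had 0.978 IDR-thresholded peaks, against 2.57 at Cat and 3.29 at Jafrac1. Keap1 had 0.625 and maf-S 0.935, and the density over the genome was 0.547. The values of the genes include peaks nearer to the starts of neighbours. The cnc gene spans 41132 bp, with 16 transcripts from 10 starts. IDR-thresholded summits lay within 500 bp of 3 of these starts. The distal start at 23226711, used by cnc-RI, cnc-RM and cnc-RN, had a summit 101 bp upstream with a signal value of 313.9 (rank 2725, and ranks of 2680 and 3106 in replicates 2 and 4). The start at 23221961, from which cnc-RC and the transcript with the longest coding sequence (cnc-RO, 1430 codons) are read, had a summit 231 bp downstream with a signal value of 293.8 (ranks 2793 and 4260). The start of cnc-RE at 23190419, which encodes 533 codons, had overlapping peaks with summits 318 and 117 bp downstream and signal values of 268.1 and 170.4. Peaks thus sat at starts of long and of short cnc products.

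The other 7 cnc starts had no IDR-thresholded summit within 500 bp. The start of cnc-RB (805 codons) had no summit that close in the pooled list or in replicate 4, and a weak one in replicate 2 (rank 29229). For 3 of the 7 starts the pooled list held a weak summit, none ranked better than 15793. The remaining cnc peak lay deep in an intron, 4312 bp from the nearest start, with a signal value of 144.9 (rank 7016) and ranks of 7657 and 7767. In all, cnc had 23 pooled peaks, of which 18 were outside the IDR-thresholded list with signal values from 35.4 to 128.3.

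maf-S encodes the small Maf partner of CncC and had no peak of its own. This gene of 693 bp lies on chromosome 2R from 20640976 to 20641668, plus strand. The single peak within 5 kb, from 20646191 to 20646399, was 66 bp upstream of the start of Lrt, 4626 bp beyond maf-S. It was among the weakest of the IDR-thresholded list (signal value 140.1, rank 7290) and ranked 7890 and 6666 in replicates 2 and 4. None of the 4 lists had another peak in or within 5 kb of maf-S.

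Promoter peaks were present at 3 of the 7 genes, Cat, Jafrac1 and cnc, where 13.2% of all protein-coding genes had one. Since the genes were picked with Cat known, nothing is read from this count. Of the 15 summits, 8 had the listed gene as the gene of the nearest start and 7 had a neighbour. Introns held 9 summits, 6 of them introns of the listed gene, 3 were intergenic and 0 were in coding exons. The same shares over all IDR-thresholded peaks are not given here, so no preference is read from these placements. The median signal value was 268.1, against 251.5 over all IDR-thresholded peaks, and 8 of 15 were in the stronger 50% of that list.

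All 15 peaks overlapped a peak of each replicate list by at least 1 bp, as did 96.1% of all IDR-thresholded peaks. Summits lay within 100 bp of a summit in both replicates for 13 of 15, against 90.0% of all, and the 2 exceptions were at cnc, with shifts of 104 bp in replicate 2 and 166 bp in replicate 4. At 50% of both lengths 11 of 15 were matched in both, where 75.3% of all IDR-thresholded peaks were. The 4 that were not, at Cat (279 bp from the CG14073 start), Jafrac1 (in IP3K2), cnc (distal start) and maf-S (at Lrt), differed in width from the overlapping peak of 1 replicate. They were 120 to 223 bp wide, and the overlapping peak was wider in 3 cases and narrower (109 bp) at Cat. Each of the 15 had the same rank in the IDR-thresholded list as in the pooled list, down to rank 7290. To that rank the list thus held the strongest pooled peaks, whether or not each was in both replicates. A place in it is not a call of agreement for that single peak. The lists come from the same 2 libraries, so these overlaps are not separate evidence.

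**Figure D3:**
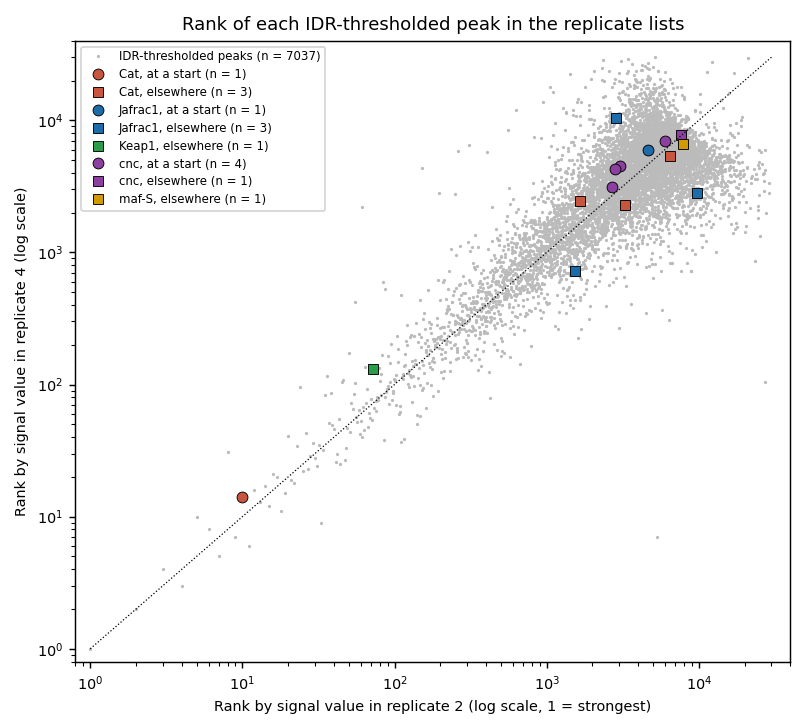
Rank by signal value in replicate 2 (horizontal, log scale) against replicate 4 (vertical, log scale) for the 7037 IDR-thresholded peaks that overlap a peak of both lists (grey) and for the 15 peaks at the oxidative stress genes (coloured, circles for summits within 500 bp of a start of the gene). The Cat start (10 and 14) and the peak upstream of Keap1 (72 and 130) lie far below the rest of the 15, and the 2 Jafrac1 peaks farthest from the dotted line of equal rank are those at 2875 and 10381 and at 9760 and 2837.

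A wider list of 69 genes of oxidative stress defence, the 7 included, all found in the annotation, was read in the same way. Of these, 21 (30.4%) had a promoter peak, from 20 separate peaks, and 18 of 62 (29.0%) did without the 7, beside 13.2% of all protein-coding genes. The median promoter signal value was 445.7 over the 21 genes and 315.7 over all 1842. Some members, such as REPTOR, were known to be bound when the list was written, so these shares carry no test and are not read as particular to the list. Within 5 kb, 44 of 69 genes (63.8%) had a summit, beside the 40.1% above.

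The strongest promoter peaks of the list after Cat were at stress regulators, iron storage and an oxidant source. Sesn, the sestrin gene, had a signal value of 1479.8 (ranks 167 and 196 in replicates 2 and 4), although CG46429 had the nearest start. REPTOR, which encodes a transcription factor held back by TOR signalling, had 1464.4 (ranks 162 and 182). The ferritin subunit genes Fer1HCH and Fer2LCH shared a peak of 1220.5 (ranks 235 and 344), 335 bp upstream of one and 237 bp downstream of the other. Duox, whose product makes hydrogen peroxide, had 1166.5 (ranks 303 and 305).

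The classes of the list differed in how many members had a promoter peak, and each is small, so a share moves much with 1 gene. The share of all protein-coding genes was 13.2%. Catalase and peroxidases had 2 of 5 (40.0%), Cat and PHGPx (375.0), a glutathione peroxidase gene whose peak had no overlapping peak in replicate 4. Regulators had 5 of 8 (62.5%), and those not yet given were foxo (556.6), the insulin-regulated forkhead factor, and Atf4 (293.8), whose peak was nearer to a start of CG46314. Peroxiredoxins and their partner Srx had promoter peaks at 2 of 8 genes (25.0%), Jafrac2 (316.0) and Jafrac1. The thioredoxin class had 2 of 9 (22.2%), Trx2 (179.6) and MsrB (154.9). Glutathione synthesis had 1 of 4 (25.0%), Gclc (144.9), which encodes the catalytic subunit of the first enzyme of that route, while its partner subunit gene Gclm had no summit within 5 kb. Glutathione transferases had 4 of 17 (23.5%), namely Mgstl (737.7), GstT1 (679.4), GstD1 (445.7), a commonly used CncC target, and GstS1 (234.4). Genes that supply NADPH had 2 of 4, Idh (575.1) and Men (357.0). Mitochondrial quality genes had 0 of 4 and superoxide dismutases with Ccs 0 of 4. Values at clustered Gst genes and at the Prx2540 pair are uncertain, since how reads were assigned between related copies is unknown and was not tested.

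**Figure D4:**
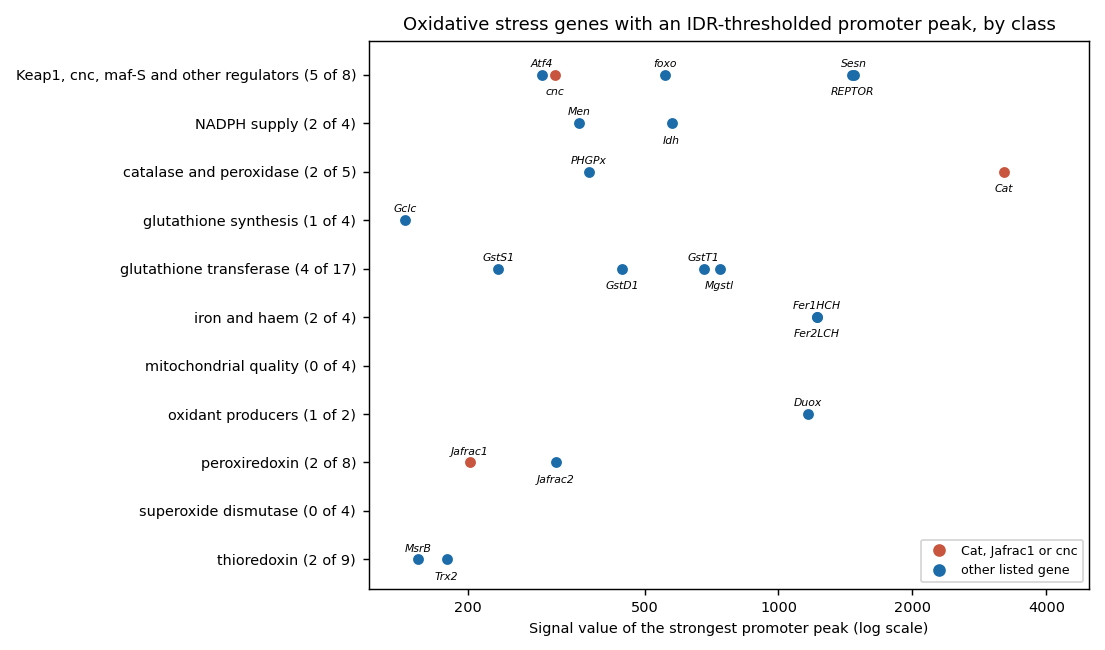
Signal value of the strongest IDR-thresholded promoter peak (horizontal, log scale) for the 21 of 69 listed genes that have one, by class. Beside each class name is the number with a promoter peak of the number listed. Each point is 1 gene, with Cat, Jafrac1 and cnc in red. Cat, at 3207.1, lies to the right of all other points, and the superoxide dismutase and mitochondrial quality rows are empty. An empty row means no promoter peak: 3 of the 4 mitochondrial quality genes had a summit within 5 kb.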

How the data were processed

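ChIP-seq peak lists from 2 biological replicates of 1 group were used. Fragments were 200 to 800 bp after sonication, per the labels. Per the deposited documentation, each replicate list and the pooled list were made from alignments and 1 further file, and the IDR-thresholded list from them. Not given in the sources used here: aligner, caller, cut-off for IDR, read depth. The deposited lists hold a signal value, a score on no stated scale, and a −log10 q-value, at most 3.89 and not used to rank peaks.

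Peaks were ranked by signal value within each list, on dm6, 1-based. Genes were annotated from Ensembl 115 (BDGP6.54) and sequence from the RefSeq copy of the same assembly. Of the 69 listed symbols, 6 (Jafrac1 among them) were found through RefSeq synonyms. A summit was at a gene within 5 kb and at a promoter within 500 bp of an annotated start. Peaks were matched where their overlap covered 50% of each, and ties went to the closer summit. Matching and promoter calls were tested on simulated intervals. Python 3.11.15, pandas 2.3.3 and numpy 2.4.6 were used. No test was run, and shares of all genes or peaks are given for comparison. The genes, lists and motifs were chosen with earlier results of these data known. The named genes were the 7 genes, the gene of the nearest start of each peak, the 5 strongest promoter peaks and 3 enzyme classes of the list, and the 5 genes nearest Cat in rank. Other listed genes and peaks of single lists were named after their values were seen. Alternatives covered distance, overlap, list, window and replicate.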

Additional observations from a re-analysis of the deposited data

How the results depend on the processing

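The 15 IDR-thresholded peaks at the 7 genes became 26 within 10 kb, 7 in the gene bodies alone, and 8 in the stronger 50% of the list. The pooled peaks went from 41 to 74 within 10 kb and 27 in the gene bodies. The number of genes with an IDR-thresholded peak fell from 5 to 3 in the gene bodies alone (Cat, Jafrac1 and cnc), where 14.0% of all protein-coding genes had one. Peaks matched in both replicates fell from 11 to 5 at 80% of both lengths, where 47.4% of all IDR-thresholded peaks were matched. The remaining alternatives left these counts within 1.5 times the reported value. With 1 replicate left out, peaks were counted among the 7326 strongest entries of the other replicate list, so list length was kept equal by choice. Such peaks at the 7 genes numbered 15 to 16. The genes with a promoter peak numbered 4 with either replicate alone, where 15.5% (replicate 2) and 12.9% (replicate 4) of all protein-coding genes had one. The genes added were Sod1 and Keap1, respectively. The summit windows with the antioxidant response element numbered 1 to 2, the second at the cnc-RE start, where the replicate 4 summit lies 166 bp from the reported one. The list genes with a promoter peak numbered 19 to 26 with 1 replicate left out, beside the same 12.9% and 15.5% of all genes, and 14 within 250 bp, beside 9.21%. No paired analysis was possible because the series has a single group. Among the ranks of the strongest peak at single genes, 11 values moved and 23 did not. Depth is unknown, so a weak or missing peak cannot be told from too few reads.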
